A study of Mus musculus with 6 samples.

Results

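Mitosis and G2/M genes encode the proteins that carry a cell from the end of DNA synthesis through chromosome segregation to division. The set examined here held 40 mouse genes, chosen by name as spindle, kinetochore, cytokinesis and G2/M genes, of 41388 Ensembl identifiers in the count table. All 40 were present, and 39 had enough counts to be tested; Pbk did not. The data were bulk RNA sequencing counts from liver of BALB/c mice in which carbon tetrachloride (CCl4), a liver toxin, had been given for 5 weeks to cause fibrosis. In the AL/NP group (3 libraries) mice also received nanogels loaded with the bisphosphonate alendronate at 4 mg/kg, by 2 injections per week over the last 2 weeks. The control group (3 libraries) had the same CCl4 fibrosis and was labelled untreated. The samples include neither healthy liver nor empty nanogels, so the drug, its carrier and the injections cannot be told apart, and sex and age are not given in the labels used here. The labels number the replicates without stating that each is a separate animal, so p-values measure the spread between these libraries.

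In a dividing cell, transcription of this group peaks in G2 and mitosis. Cyclin-dependent kinase 1 with A- and B-type cyclins starts mitosis, Aurora and Polo kinases build the spindle, checkpoint kinases hold cells until every chromosome is attached, and the anaphase-promoting complex with Cdc20 then ends mitosis by degrading cyclin B. Adult liver divides little at rest, whereas injury such as CCl4 makes hepatocytes, and also macrophages, endothelial and stellate cells, enter the cell cycle. Many of these genes carry in their promoter a short element, the cell cycle genes homology region, bound by the DREAM and MuvB complexes, which hold them silent in resting cells and help to activate them in G2.

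Libraries held 30554483 to 39838428 counts. Control replicate 3 stood apart, with 26.7% of counts from mitochondrially encoded genes, against 11.96% to 17.0% in the AL/NP libraries and 16.2% and 19.8% in the other controls. Hepatocyte markers summed to 53039 to 62136 CPM (counts relative to library size, scaled by the TMM method) in AL/NP livers and 63030 to 81140 CPM in control livers, without overlap. Most of each sum was Alb, at 36814 to 43309 CPM in AL/NP livers and 44091 to 53586 CPM in control livers (log2 fold change -0.23, SE 0.242). In log2 fold change 8 of 12 markers were below 0. Groups did not overlap in 2 markers that were lower and 2 that were higher, against 15.0% and 14.5% of all genes. The sums therefore do not describe every marker.

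Transcripts of the mitosis genes were scarce, and most were at a lower level in the AL/NP livers. Summed over the 40 genes they reached 43.3, 44.9 and 62.6 CPM in AL/NP replicates 1 to 3, against 75.2, 64.5 and 94.5 CPM in control replicates 1 to 3, a mean of 50.3 ± 10.7 against 78.1 ± 15.2 CPM (SD, n = 3 each) and a ratio of 0.644. The groups did not overlap in this CPM sum, but AL/NP replicate 3 lay close to control replicate 2. They did overlap in TPM, the count per kilobase of exon scaled to the same total in each library. Summed TPM was 12.25, 15.98 and 23.11 in AL/NP replicates 1 to 3, against 23.85, 17.93 and 18.44 in control replicates 1 to 3. On that scale AL/NP replicate 3 lay above control replicates 2 and 3, so the separation depended on the scale used. TPM was not scaled by the TMM method, so the 2 measures differ in library scaling as well as in exon length. Against library totals alone, AL/NP replicate 3 (2156 of 30554483 counts) also lay above control replicate 2 (2335 of 36064739 counts). Fold changes were below 0 on the log2 scale in 34 of 39 tested genes, with a median of -0.54, against 50.0% and a median of 0.00 over all 15939 genes tested. The edgeR quasi-likelihood test with Benjamini-Hochberg adjustment called 0 of the 39 at an adjusted p under 0.05, where the background of calls was 0.0188% lower, 0.0627% higher and 0.0816% in either direction. Their adjusted p-values ran from 0.128 to 0.995.

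At an unadjusted p under 0.05, 7 of the 39 (17.9%) were lower in AL/NP livers and 0 were higher, against a background of 10.3% lower, 9.37% higher and 19.6% in either direction over all genes. The AL/NP and control libraries did not overlap in 7 of the 39 (17.9%), all lower, close to the background of 15.0% lower (14.5% higher), so this count says little about the group. DESeq2, run as an alternative, called 2 of the 40 lower (5.0%, background 2.48%), Cdk1 and Cenpa, and 0 higher (background 2.59%). Bulk RNA does not tell fewer dividing cells from less RNA per cell.

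**Figure D1:**
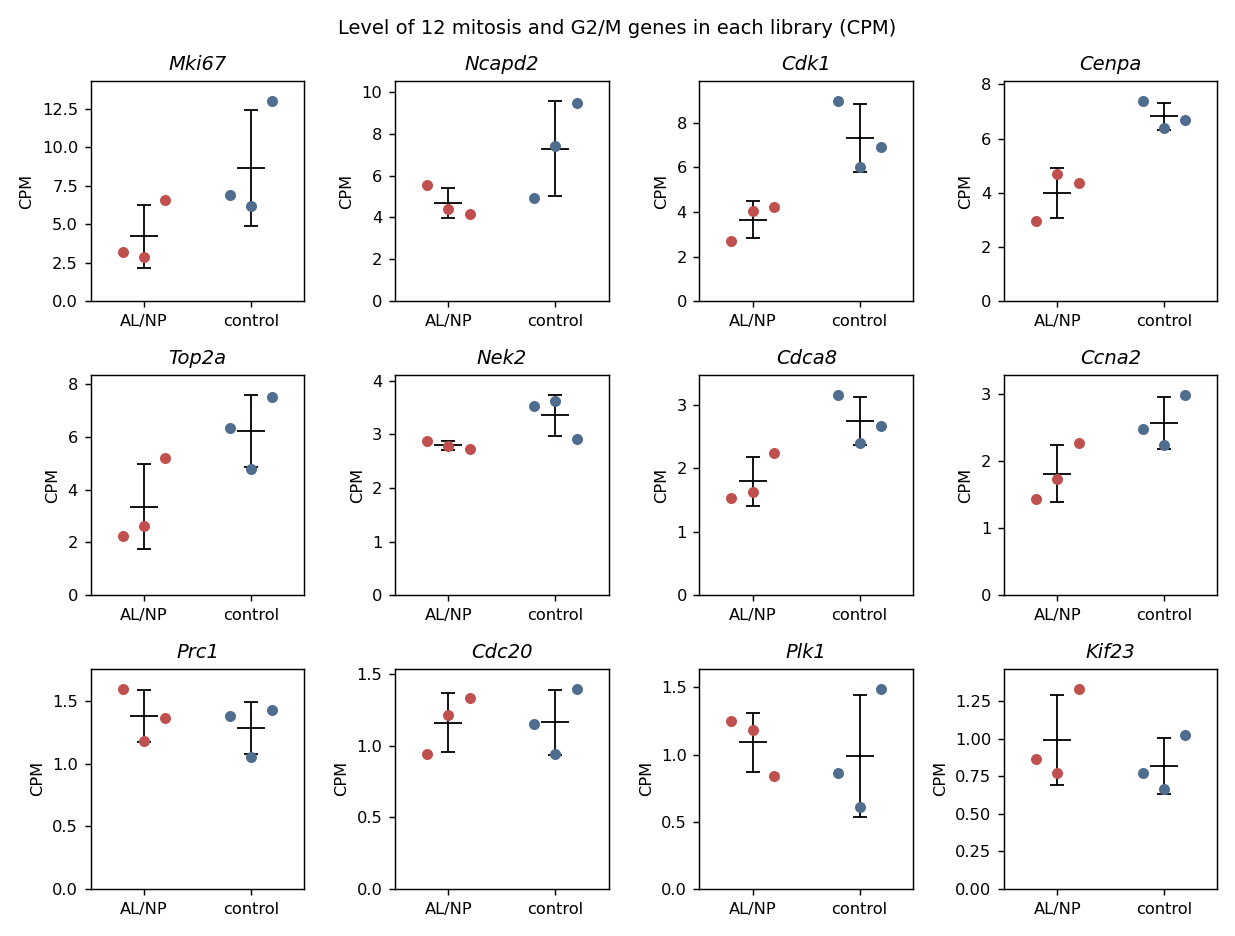
Level in CPM (vertical axes, from 0) of 12 genes in each library, replicates 1 to 3 from left to right within a group; lines mark the mean and bars the SD. The first 8 panels are the genes with at least 2 CPM on average and the last 4 are among the 5 genes with fold changes above 0; Cdk1 and Cenpa do not overlap between groups, whereas Prc1, Cdc20, Plk1 and Kif23 do.

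Libraries of the AL/NP group differed among themselves. Of the 40 genes, 21 had their lowest CPM in AL/NP replicate 1, 13 in AL/NP replicate 2 and 2 in AL/NP replicate 3, against 0, 4 and 0 in control replicates 1 to 3. The highest CPM lay in control replicate 3 for 23 genes, in control replicate 1 for 8 and in control replicate 2 for 1, whereas AL/NP replicates 1 to 3 held the highest CPM of 3, 0 and 5 genes. The median gene stood at -0.74, -0.78 and -0.13 in AL/NP replicates 1 to 3, on the scale of log2(CPM + 0.1) minus the mean of the controls, and at 0.05, -0.28 and 0.29 in control replicates 1 to 3. By this measure AL/NP replicate 3 lay above control replicate 2. Without AL/NP replicate 3 the median log2 fold change was -0.90 and 16 genes had an unadjusted p under 0.05. Without control replicate 3 the median was -0.39 and 2 genes had one, and without AL/NP replicate 1 or 2 the count was 3. No share over all genes is set beside these counts, so they do not compare the mitosis genes with other genes.

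**Figure D2:**
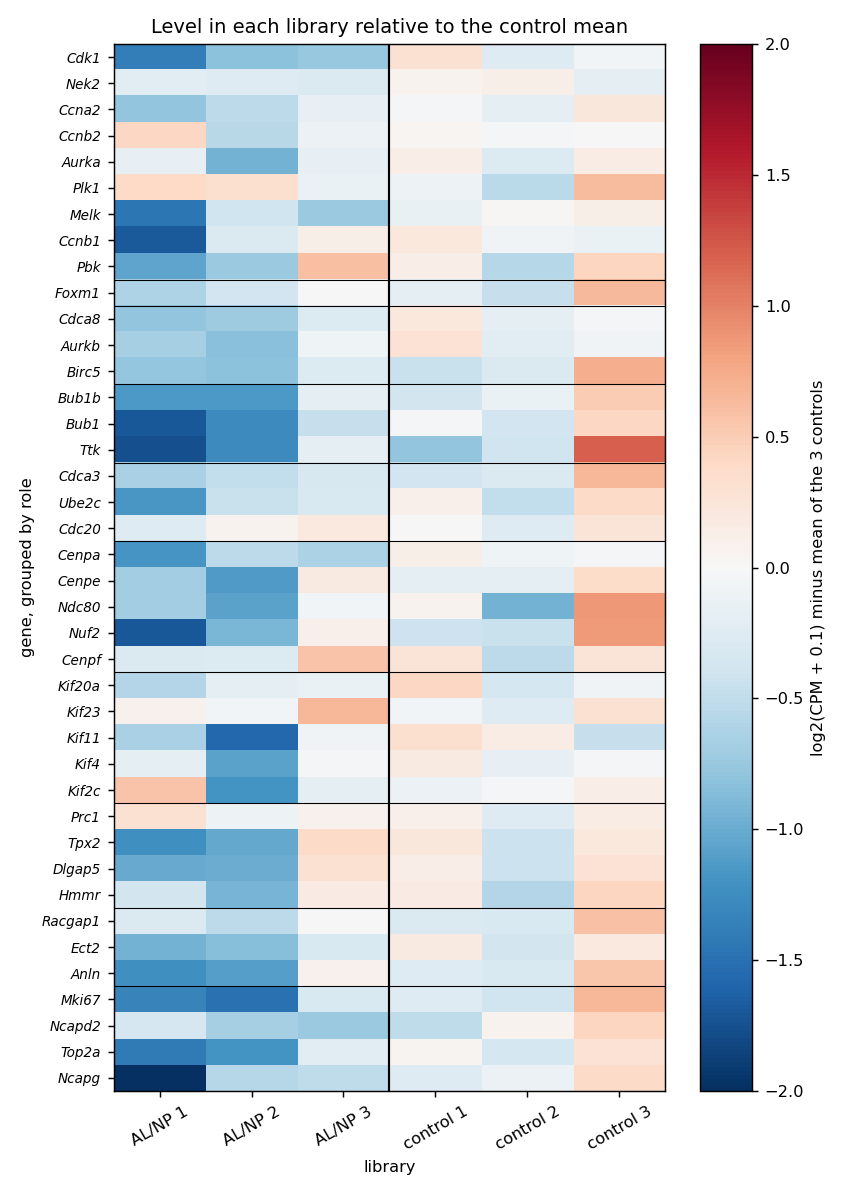
Each of the 40 genes (rows, grouped by role) in each library (columns), as log2(CPM + 0.1) minus the mean of the 3 controls; blue is lower and red is higher. AL/NP replicates 1 and 2 are mostly blue, AL/NP replicate 3 is mixed with a median of -0.13, and control replicate 3 holds the highest value of 23 genes.

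Most of the promoters searched held an element that played no part in choosing the genes. RefSeq promoter windows on GRCm38.p6, from 250 bases before to 50 after each start, were matched for 33 of the 40 genes and searched on both strands for TTTGAA and TTCGAA (the cell cycle genes homology region), for CCAAT, and for GGCGGGA and TTTGGCG (E2F-type letters). TTTGAA or TTCGAA occurred in 27 of 33 (81.8%), against 21.7% of all 27025 genes with a window. CCAAT occurred in 27 of 33 (81.8%) against 41.1%, and both together in 24 (72.7%) against 8.61%. GGCGGGA or TTTGGCG occurred in 10 (30.3%) against 14.1%. Within 50 bases either side of the start, a window chosen after the positions were seen, 24 of 33 (72.7%) held TTTGAA or TTCGAA, against 6.12% of all genes. A match describes letters only and does not show binding.

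Short stretches of 24 bases around the match are shown for the 9 genes with the smallest p-values that hold such a match within 50 bases of the start, 5′ to 3′ along the gene, with the match in capitals (TTCAAA is the same element on the other strand).
Cdk1 (chr10:69352918-69352941, minus strand): tttaccgcggcgagTTTGAAactg
Cenpa (chr5:30666888-30666911, plus strand): ggggcgggtgatttTTTGAActgc
Bub1 (chr2:127831836-127831859, minus strand): ggctgcgcggggaaTTCGAAtcgc
Top2a (chr11:99024203-99024226, minus strand): gggctagataaaggTTCAAAtgaa
Cdca8 (chr4:124936895-124936918, minus strand): ctgtgcccgttgagTTTGAAttgg
Ect2 (chr3:27153830-27153853, minus strand): agcgactggattttTTTGAAtcgg
Ncapg (chr5:45669881-45669904, plus strand): tcccgcgatagttgTTTGAAaact
Bub1b (chr2:118598237-118598260, plus strand): caagagacgttaaaTTTGAAactt
Ttk (chr9:83834682-83834705, plus strand): ggcagcggggaaatTTCAAAcgtg
The first base of the match lay 15 bases before the start in Cdk1 and at base 17 after it in Cenpa. The same element stood beside the start in all 5 tested genes whose fold changes were above 0, shown for comparison.
Plk1 (chr7:122159451-122159474, plus strand): ttcccagcgccgcgTTTGAAttcg
Prc1 (chr7:80294432-80294455, plus strand): cgcctctggctcggTTTGAAttcc
Cdc20 (chr4:118437352-118437375, minus strand): taagacagttgggtTTTGAAggag
Kif23 (chr9:61946788-61946811, minus strand): cgctgattggcctgTTTGAAatgc
Cenpf (chr1:189688075-189688098, minus strand): gcggcggcgggcagTTTGAAtcgc
The 24 tested genes with the match near the start had a median of -0.64 on the log2 scale, and 19 were below 0. The 9 genes with a window but no match there had a median of -0.63, and all 9 were below 0. The difference was not tested.

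For the 3 genes with the smallest p-values among those with the element upstream, the 150 bases before the start are printed with every searched motif in capitals, because they show how the elements are arranged.
Cdk1 (chr10:69352913-69353062, minus strand): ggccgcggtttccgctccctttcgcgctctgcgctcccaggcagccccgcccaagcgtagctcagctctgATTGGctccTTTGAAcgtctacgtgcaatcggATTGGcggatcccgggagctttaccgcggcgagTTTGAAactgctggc
Mki67 (chr7:135716380-135716529, minus strand): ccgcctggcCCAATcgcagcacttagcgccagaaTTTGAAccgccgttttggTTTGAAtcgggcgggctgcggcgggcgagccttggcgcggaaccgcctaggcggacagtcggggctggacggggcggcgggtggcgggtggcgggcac
Top2a (chr11:99024190-99024339, minus strand): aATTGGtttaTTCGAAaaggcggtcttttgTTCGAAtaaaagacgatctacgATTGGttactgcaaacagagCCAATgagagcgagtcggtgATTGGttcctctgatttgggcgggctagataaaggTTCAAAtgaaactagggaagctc
Cdk1 held TTTGAA 2 times, each 3′ of a CCAAT box on the other strand (ATTGG). Mki67 held TTTGAA 2 times with a single CCAAT, and Top2a held 3 elements and 4 CCAAT boxes.

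Among kinases and cyclins that drive entry into mitosis, 7 of 8 tested genes had fold changes below 0, with a median of -0.47 on the log2 scale. Cdk1 (ENSMUSG00000019942, GRCm38 chr10:69335146-69352938, protein coding), the kinase at the centre of mitotic entry, was the most abundant of the 40 per exon length, at a mean of 1.55 TPM over the 6 libraries. It measured 2.71, 4.05 and 4.21 CPM in AL/NP replicates 1 to 3, against 8.96, 6.02 and 6.93 CPM in control replicates 1 to 3. All AL/NP values lay below all control values, and the log2 fold change was -0.99 (SE 0.249; edgeR unadjusted p = 0.00329, adjusted p = 0.128). DESeq2 called it (adjusted p = 0.0132), but not without AL/NP replicate 1 (0.0905), AL/NP replicate 2 (0.0597) or control replicate 1 (0.110). Over all alternatives its log2 fold change ran from -1.13 to -0.81 and its adjusted p from 0.0132 to 0.305.

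Its cyclin partners were less far apart. Ccna2, cyclin A2, measured 1.43, 1.73 and 2.26 CPM in AL/NP replicates against 2.47, 2.24 and 2.98 CPM in controls, and the groups overlapped slightly (log2 fold change -0.50, SE 0.275, adjusted p = 0.330). Ccnb1, cyclin B1, rested on 40 counts in AL/NP livers and 58 in control livers, and its value of 0.104 CPM in AL/NP replicate 1 stood below 0.440 and 0.609 CPM in the other AL/NP libraries and 0.661, 0.525 and 0.497 CPM in controls. Its log2 fold change was -0.51 (SE 0.533), or -0.10 without AL/NP replicate 1. Near-identical copies of Ccnb1 lie elsewhere in the genome, of which Gm12856 had 12 counts and Ccnb1-ps 2 against 98 for Ccnb1, and whether reads were exchanged between them was not tested. Ccnb2, cyclin B2, was almost level, averaging 1.12 ± 0.415 CPM in AL/NP livers and 1.14 ± 0.0367 CPM in control livers (SD, n = 3 each).

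Melk, a kinase of dividing cells, measured 0.174, 0.468 and 0.348 CPM in AL/NP replicates against 0.574, 0.663 and 0.714 CPM in controls, without overlap (log2 fold change -0.95, SE 0.419, adjusted p = 0.255). Nek2, a centrosome kinase, also did not overlap but by a small margin, at 2.88, 2.78 and 2.73 CPM against 3.53, 3.62 and 2.92 CPM (log2 fold change -0.26, SE 0.219). Plk1, the Polo kinase of spindle assembly and mitotic exit, went the other way at 1.25, 1.18 and 0.841 CPM against 0.862, 0.608 and 1.49 CPM, a log2 fold change of 0.15 (SE 0.396) that was -0.11 without control replicate 2. Aurka, a spindle-pole kinase, was at -0.43. Pbk, a mitotic kinase, had 21 counts in AL/NP livers and 27 in control livers, and no difference was detectable at this depth. Foxm1, the transcription factor that activates G2/M genes, measured 1.18, 1.40 and 1.86 CPM in AL/NP replicates against 1.61, 1.33 and 2.98 CPM in controls. Its log2 fold change of -0.41 (SE 0.369) rested on control replicate 3 and was 0.014 without it.

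All 3 spindle checkpoint kinases had fold changes below 0, with a median of -1.31, but on few counts. Bub1 (ENSMUSG00000027379, GRCm38 chr2:127801122-127831865) had 28 counts in AL/NP livers and 71 in control livers. It measured 0.139, 0.220 and 0.464 CPM in AL/NP replicates and 0.661, 0.497 and 0.932 CPM in controls, with no overlap (log2 fold change -1.31, SE 0.497; edgeR unadjusted p = 0.0278, adjusted p = 0.210). Bub1b, which encodes BubR1, measured 0.278, 0.275 and 0.638 CPM against 0.546, 0.663 and 1.09 CPM, with overlap (log2 fold change -0.93, SE 0.469). Ttk, the kinase Mps1, had the lowest fold change of the 39, -1.47 with an SE of 0.783. It measured 0.0695, 0.138 and 0.406 CPM in AL/NP replicates against 0.230, 0.331 and 1.21 CPM in controls, and without control replicate 3 its log2 fold change was -0.43.

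The chromosomal passenger complex corrects faulty spindle attachments and guides cytokinesis. Its 3 members here, the kinase Aurkb, the survivin gene Birc5 and the borealin gene Cdca8, had log2 fold changes between -0.74 and -0.54. Birc5 was highest in control replicate 3, at 2.83 CPM against a control mean of 1.80 CPM. Cdca8 (ENSMUSG00000028873, GRCm38 chr4:124918465-124939311) measured 1.53, 1.62 and 2.23 CPM in AL/NP replicates against 3.16, 2.40 and 2.67 CPM in controls, with no overlap (log2 fold change -0.61, SE 0.266; edgeR unadjusted p = 0.0487, adjusted p = 0.252). Aurkb measured 1.04, 0.908 and 1.60 CPM against 2.10, 1.46 and 1.62 CPM, and its groups overlapped (log2 fold change -0.54, SE 0.324). Cdca8 shares 232 exon bases with 9930104L06Rik on the opposite strand, which had 374 counts per 100 of Cdca8, and the strand setting of the counting is not given, so some reads may belong to that gene. The same holds for Ccna2, Cdc20, Kif20a, Kif4, Prc1 and Ncapg, which each overlap a more abundant gene on the opposite strand.

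Genes for protein degradation at mitosis differed among themselves. Cdc20, which activates the anaphase-promoting complex, measured 0.938, 1.21 and 1.33 CPM in AL/NP replicates and 1.15, 0.939 and 1.40 CPM in controls. The groups fully overlapped, with a log2 fold change of 0.0049 and an SE of 0.310, and the sign changed with single libraries left out. Ube2c, the ubiquitin-conjugating enzyme that works with the same complex, was at -0.67 (SE 0.358), and Cdca3, which helps to degrade the mitotic inhibitor Wee1, was at -0.59 (SE 0.354). Cdca3 was highest in control replicate 3, at 3.26 CPM against a control mean of 2.14 CPM.

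Of 5 centromere and kinetochore genes, 4 had fold changes below 0, and the median was -0.77 on the log2 scale. Cenpa (ENSMUSG00000029177, GRCm38 chr5:30666777-30674830), the histone H3 variant that marks centromeres, measured 2.95, 4.68 and 4.35 CPM in AL/NP replicates against 7.38, 6.38 and 6.68 CPM in controls. No AL/NP value reached the lowest control, and the log2 fold change was -0.77 (SE 0.225; edgeR unadjusted p = 0.00813, adjusted p = 0.151). DESeq2 put its adjusted p at 0.0495, just inside the threshold, and at 0.0727 to 0.199 with any single library left out. Over all alternatives the adjusted p of Cenpa ran from 0.0495 to 0.386. Nuf2 and Ndc80, which join microtubules to the kinetochore, were at -0.96 (SE 0.690) and -0.87 (SE 0.603), and the motor Cenpe was at -0.52. Cenpf, a large kinetochore protein and the gene with the lowest level per exon length (0.0313 TPM), had 34 counts in each group, at 0.243, 0.248 and 0.522 CPM against 0.402, 0.193 and 0.404 CPM, and its log2 fold change of 0.03 became -0.43 without AL/NP replicate 3.

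Kinesin motors, spindle assembly factors and cytokinesis genes gave 0 members with an unadjusted p under 0.05, against 19.6% of all genes in either direction. Over the 5 kinesins the median was -0.35 on the log2 scale. Kif11, which pushes spindle poles apart, was at -0.79 (SE 0.496), Kif4 at -0.45, Kif20a at -0.35 and Kif2c at -0.14. Kif23, a motor of the central spindle, had the highest fold change of the 39, 0.28 (SE 0.354), with 0.869, 0.771 and 1.33 CPM in AL/NP replicates against 0.775, 0.663 and 1.03 CPM in controls, which overlap. Prc1, which bundles microtubules in the central spindle, measured 1.60, 1.18 and 1.36 CPM against 1.38, 1.05 and 1.43 CPM and was at 0.10 (SE 0.291). Tpx2, Hmmr and Dlgap5, which assemble the spindle, were between -0.53 and -0.49. Hmmr had 22 counts in AL/NP livers and 32 in control livers, at 0.209, 0.110 and 0.348 CPM against 0.345, 0.166 and 0.435 CPM. Of the cytokinesis genes, Ect2, the exchange factor that switches on RhoA at the cleavage site, measured 0.765, 0.826 and 1.25 CPM against 1.78, 1.19 and 1.80 CPM, overlapping by a narrow margin (log2 fold change -0.74, SE 0.333, adjusted p = 0.260). Anln, the anillin gene, was at -0.78 (SE 0.522) and Racgap1 at -0.34 (SE 0.340).

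Of 4 genes of chromosome structure, 3 were lower at an unadjusted p under 0.05, against 10.3% of all genes, and all 3 overlapped between groups. The median was -0.96 on the log2 scale. Mki67 (ENSMUSG00000031004, GRCm38 chr7:135689784-135716361), which encodes the proliferation marker Ki-67, measured 3.20, 2.86 and 6.59 CPM in AL/NP replicates and 6.86, 6.16 and 12.98 CPM in controls. AL/NP replicate 3 lay between the controls, so the groups overlapped, and the log2 fold change of -1.04 (SE 0.391; edgeR unadjusted p = 0.0269, adjusted p = 0.208) was -0.63 without control replicate 3 and -1.52 without AL/NP replicate 3. Top2a (ENSMUSG00000020914, GRCm38 chr11:98992943-99024189), the topoisomerase that untangles sister chromosomes, was likewise highest within its group in AL/NP replicate 3, at 2.22, 2.61 and 5.19 CPM against 6.35, 4.78 and 7.52 CPM in controls (log2 fold change -0.89, SE 0.342; edgeR unadjusted p = 0.0294, adjusted p = 0.213). Of the AL/NP libraries, only replicate 3 reached the controls, and without it the log2 fold change was -1.36.

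The condensin genes compact chromosomes. Ncapd2 (ENSMUSG00000038252, GRCm38 chr6:125168007-125191701) measured 5.53, 4.40 and 4.18 CPM in AL/NP replicates against 4.94, 7.43 and 9.47 CPM in controls, with overlap at control replicate 1 (log2 fold change -0.63, SE 0.264; edgeR unadjusted p = 0.0410, adjusted p = 0.239). Ncapg measured 0.139, 0.578 and 0.609 CPM against 0.747, 0.829 and 1.21 CPM, with no overlap (log2 fold change -1.04, SE 0.501, adjusted p = 0.283).

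**Figure D3:**
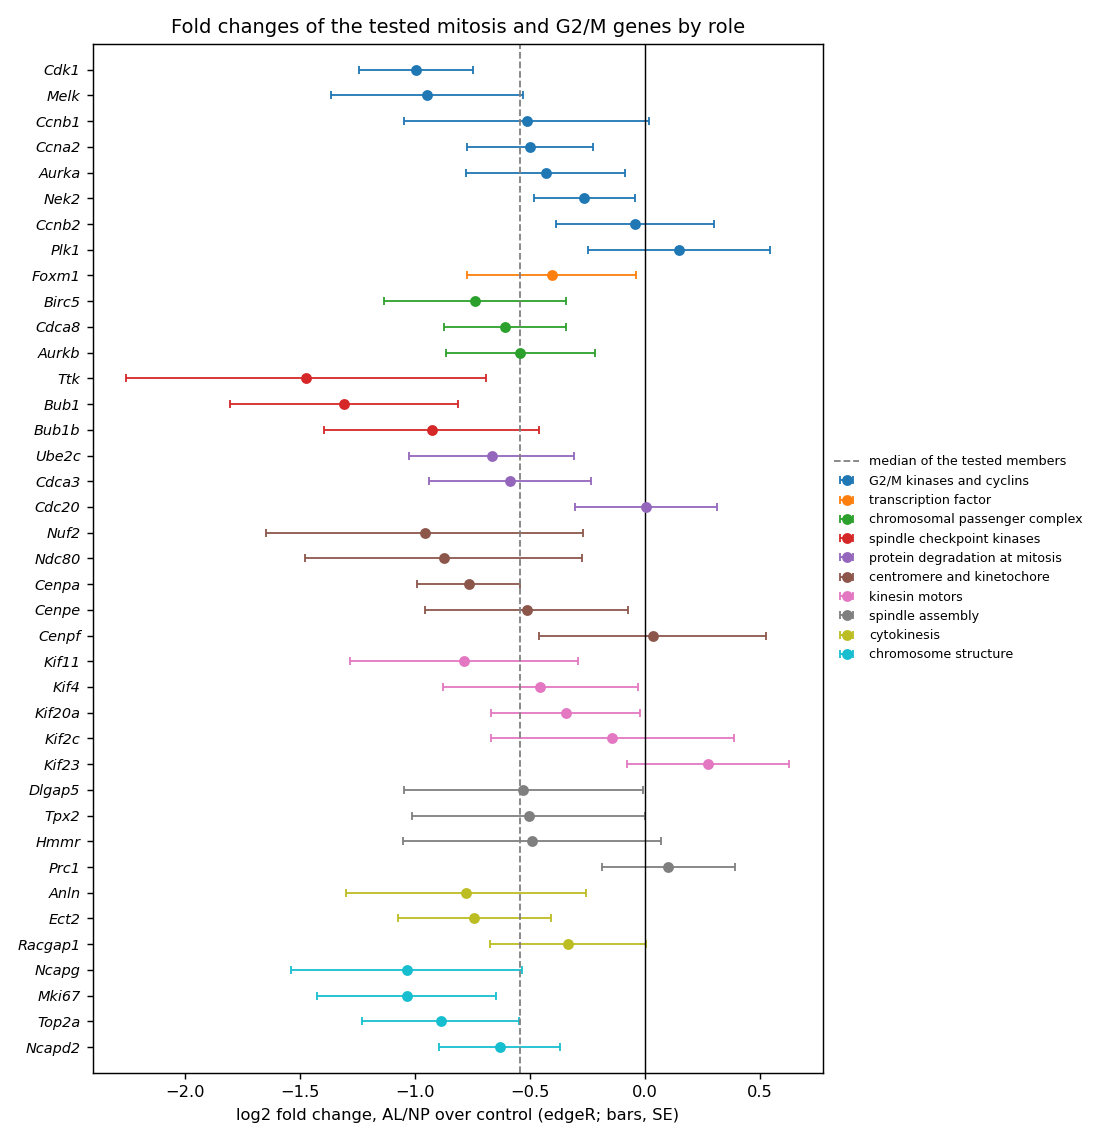
Log2 fold change of AL/NP over control for the 39 tested genes (horizontal axis, edgeR; bars are the SE), grouped by role in colour; the dashed line is their median of -0.54. Points run from -1.47 for Ttk to 0.28 for Kif23.

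Most of these genes had few counts, and SEs were larger among the rarer ones. Whether depth or the spread between libraries limited the calls was not tested. Between 48 and 1303 counts were summed over the 6 libraries per gene, with a median of 215, and per exon length the range was 0.0313 to 1.55 TPM. The 8 genes with at least 2 CPM on average (Mki67, Ncapd2, Cdk1, Cenpa, Top2a, Nek2, Cdca8 and Ccna2) were all below 0, the median being -0.70 on the log2 scale, and 6 had an unadjusted p under 0.05. Of the 31 tested genes under 2 CPM, 26 were below 0, the median being -0.52, and 1 had an unadjusted p under 0.05. Over all genes 10.3% were lower at that p, and no share at matched levels is set beside these counts. The median SE was 0.265 in the first set, 0.425 in the second, and 0.221 over all tested genes. For the rarer genes the median SE was thus almost as large as their median fold change, and a change of that size was not detectable gene by gene.

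**Figure D4:**
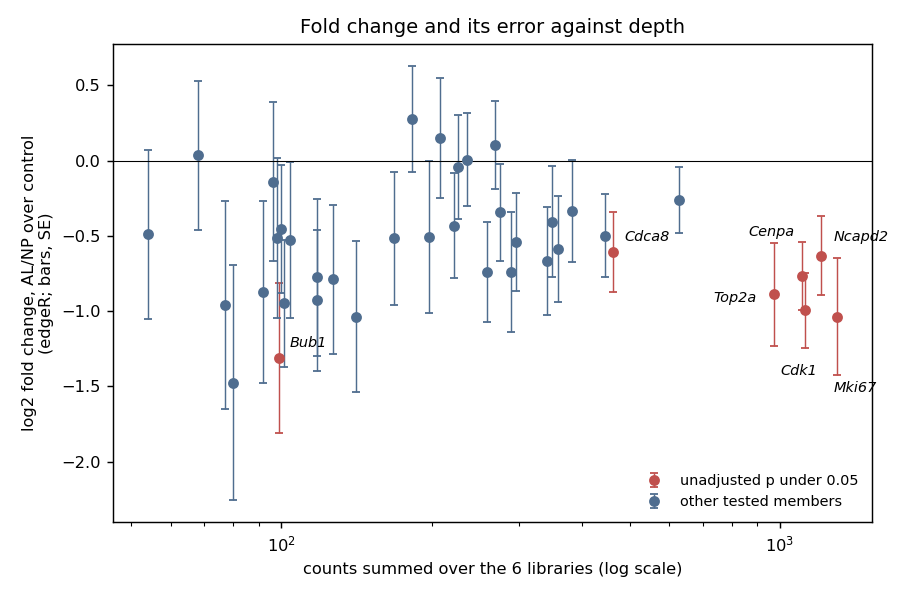
Log2 fold change (vertical axis, edgeR; bars are the SE) against counts summed over the 6 libraries (horizontal log axis) for the 39 tested genes; red marks an unadjusted p under 0.05. Of the 7 red genes, 6 are among the 8 genes with at least 2 CPM, and Bub1, with 99 counts, is the other.

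Other genes of the cell cycle were compared in the same fit. Of 75 further G2/M genes 65 were tested, and edgeR called 0 in either direction; 23 (35.4%) were lower at an unadjusted p under 0.05 and 0 higher, against 10.3% lower and 9.37% higher over all genes. The median log2 fold change was -0.51, and DESeq2 called 7 lower and 0 higher, against 2.48% lower and 2.59% higher over all genes. Ncapd3, a condensin subunit, Spc24, a kinetochore gene, and Zwilch, which works in the checkpoint, came first by p-value. Spc24 measured 1.25, 0.881 and 1.60 CPM in AL/NP replicates against 3.45, 2.49 and 8.76 CPM in controls (log2 fold change -1.97, SE 0.487, adjusted p = 0.126). Ncapd3 was at -1.07 (SE 0.262) and Zwilch at -1.78 (SE 0.461), with adjusted p of 0.126 and 0.135, and neither overlapped between groups. Control replicate 3 was the highest library for both. Ncapd3 measured 12.4, 15.2 and 24.5 CPM in control replicates 1 to 3, and Zwilch 2.21, 1.85 and 5.50 CPM. Of 47 DNA replication genes, 1 was called lower by edgeR and 0 higher; 29 (61.7%) were lower at an unadjusted p under 0.05, against 10.3% over all genes, and the median was -0.67. DESeq2 called 20 of the 47 lower and 0 higher, against 2.48% lower and 2.59% higher over all genes. The called gene was Dtl, which directs degradation of replication proteins and averaged 0.846 ± 0.275 CPM in AL/NP livers against 4.75 ± 0.250 CPM in control livers (SD, n = 3 each) without overlap (log2 fold change -2.47, SE 0.293, edgeR adjusted p = 0.0493). Uhrf1, which carries DNA methylation through replication, measured 2.61, 3.00 and 5.19 CPM in AL/NP livers against 10.4, 11.5 and 15.4 CPM in control livers (log2 fold change -1.78, SE 0.288, edgeR adjusted p = 0.0783). Timeless, a replication fork protein, was at -1.28 (SE 0.178, adjusted p = 0.0579). Whether replication and mitosis genes differ in response was not tested.

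**Figure D5:**
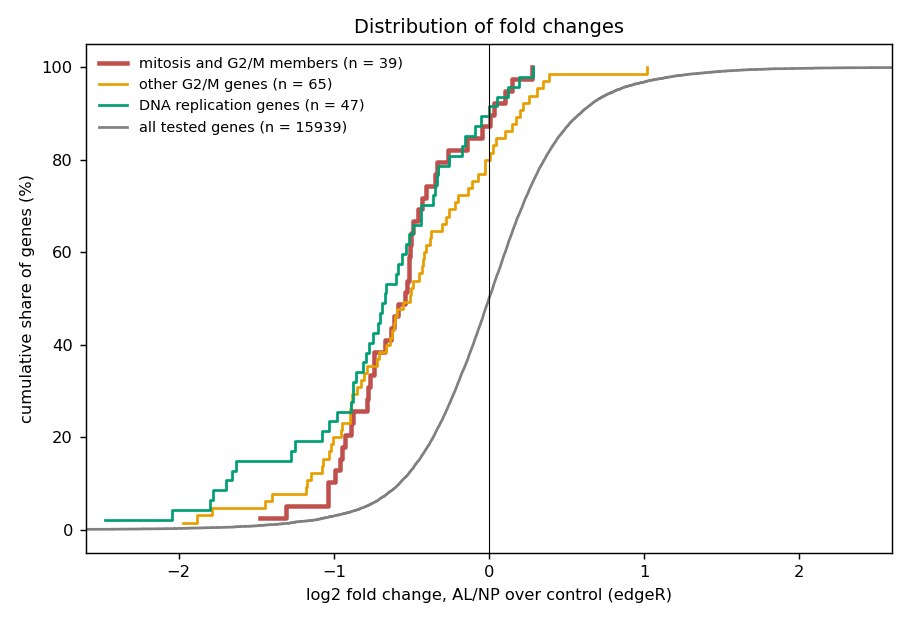
Cumulative share of genes (vertical axis, %) by log2 fold change of AL/NP over control (horizontal axis, edgeR) for the 39 tested mitosis genes, 65 other G2/M genes, 47 DNA replication genes and all 15939 tested genes. The 3 cell cycle curves lie left of the curve of all genes, with medians of -0.54, -0.51 and -0.67.

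Among 26 regulators of the cell cycle, edgeR called 0 and DESeq2 called 1 lower, against 2.48% of all genes. At an unadjusted p under 0.05, 6 (23.1%, against 10.3% over all genes) were lower. The median log2 fold change of the 26 was -0.21. Lin9, a subunit of the MuvB core that binds the promoter element above, measured 1.18, 1.98 and 1.80 CPM with AL/NP against 4.14, 3.20 and 3.35 CPM in controls, without overlap (log2 fold change -1.10, SE 0.276, edgeR adjusted p = 0.128; DESeq2 adjusted p = 0.0143). Of the other MuvB genes listed, Lin52 was at -0.20 (SE 0.220), Lin54 at -0.10 (SE 0.229) and Lin37 at 0.31 (SE 0.162). Lin37 did not overlap between groups and was higher with AL/NP. Cdk2, which acts with cyclins E and A, was at -0.59 (SE 0.168, adjusted p = 0.147), and the repressor E2f7 at -1.03 (SE 0.337, adjusted p = 0.177). E2f8 was at -1.05 (SE 0.463), E2f1 at -0.36 (SE 0.217), Mybl2, the B-Myb partner of MuvB, at 0.29 (SE 0.374) and Trp53 at -0.42 (SE 0.196). Of 17 tested cell cycle inhibitors, edgeR called 0. At an unadjusted p under 0.05, 2 (11.8%) were lower, close to the 10.3% over all genes, and 1 was higher, against 9.37%. The higher gene was Cdkn1a, which encodes the Cdk inhibitor p21, at 196, 113 and 68.1 CPM in AL/NP replicates against 64.2, 60.6 and 23.0 CPM in controls (log2 fold change 1.35, SE 0.469; edgeR adjusted p = 0.196, DESeq2 adjusted p = 0.0323). The libraries at the ends were AL/NP replicate 1, which held the lowest CPM of 21 mitosis genes, and control replicate 3, which held the highest CPM of 23. AL/NP replicates 1 and 2 had mitosis gene sums of 43.3 and 44.9 CPM, with Cdkn1a at 196 and 113 CPM. Whether Cdkn1a varies with the mitosis genes was not tested. Cdkn1b and Cdkn1c were at -0.45 (SE 0.166) and -0.83 (SE 0.349), both with an adjusted p over 0.2.

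Macrophage and neutrophil markers were at higher summed levels in AL/NP livers, and edgeR called 0 markers of any cell type. DESeq2 called 3 macrophage, 4 neutrophil, 1 T and NK cell and 1 erythroid marker higher, and of the hepatocyte markers 1 lower and 1 higher. Over all genes DESeq2 called 2.59% higher and 2.48% lower. Macrophage markers summed to 478, 537 and 837 CPM in AL/NP replicates 1 to 3, against 283, 249 and 405 CPM in controls. Of 14 tested markers 13 were above 0, and 9 were higher at an unadjusted p under 0.05, against 9.37% of all genes. Neutrophil markers summed to 485, 821 and 962 CPM against 294, 247 and 215 CPM, with all 9 tested above 0. Stellate cell and myofibroblast markers summed to 398, 467 and 831 CPM against 601, 440 and 972 CPM, with overlap. AL/NP replicate 3 and control replicate 3 were the highest of their groups in the CPM sum of the mitosis genes. They were also the highest in the sums of stellate, macrophage, hepatocyte and erythroid markers, but not both in the other marker lists. Control replicate 3 was the lowest control for neutrophil (215 CPM), cholangiocyte (429 CPM) and B and plasma cell markers (126 CPM). Summed levels of sinusoidal endothelial markers (225 to 283 CPM with AL/NP, 223 to 288 CPM in controls), cholangiocyte markers (453 to 875 and 429 to 603), B and plasma cell markers (127 to 147 and 126 to 168), T and NK cell markers (5.45 to 21.8 and 3.79 to 6.21) and erythroid markers (10.6 to 15.3 and 10.5 to 17.1) overlapped between groups. No marker in these lists had 0 counts in total. The part of these cells in the levels of mitosis genes was not tested.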

How the data were processed

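The authors deposited raw read counts, whole numbers for each Ensembl identifier in 6 libraries. The GRCm38 build, STAR 2.6.1a, featureCounts and DESeq2 1.26.0 are named by the submitters' processing notes; annotation release, strand setting and filters are not given in the sources used here. Of 41388 identifiers, 40254 had a symbol in the reference table; coordinates and exon lengths came from GENCODE M21 (GRCm38). TPM is the count per kilobase of merged exons, scaled to the same total in each library.

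All genes passing filterByExpr (minimum count 10; 15939 genes) were compared with edgeR 4.0.16 in R 4.3.3 (quasi-likelihood test, robust, TMM, Benjamini-Hochberg, threshold 0.05); SE is the absolute log2 fold change over the square root of F. Alternatives used limma 3.58.1 and DESeq2 1.42.0. Copies were searched with blastn 2.17.0 at 95% identity over at least 100 bases and 50% of the matching transcript. Apart from overlapping genes, Ccnb1 and Pbk had the longest matches, up to 1294 and 955 bases. Shorter matches were found for Racgap1 (488 bases), Mki67 (216), Ndc80 (202), Nuf2, Top2a, Cenpa, Cdca8, Dlgap5 and Ube2c. Of all these, the ones in the count table had at most 12 counts. The matches of Racgap1, Mki67 and Ndc80, and some of Ccnb1, are not in it. On simulated data of this comparison (15794 genes) 32% of 100 genes simulated at 2-fold were called, as were 93% of 100 simulated at 4-fold. Of 133 calls 8 were false, and most 2-fold changes were missed. The changed genes were drawn from all tested genes, whose median SE was 0.221, against 0.391 for the mitosis genes. These shares therefore do not describe the mitosis genes. A count of 3 equals 0.0826 to 0.104 CPM, which covers counting error only. No pair of libraries was a duplicate.

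The members and lists were chosen with earlier results of these data known. Values per library are given for the 12 members with the smallest p-value and 9 set members. They are also given for the 2 most and 2 least abundant per exon length and those above 0. Other cell cycle lists give their 3 smallest p-values and 5 set genes, with Lin37, Lin52 and Lin54 added beside Lin9.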

Additional observations from a re-analysis of the deposited data

How the results depend on the processing

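The number of mitosis genes called by edgeR stayed at 0 with other scalings, a stricter filter, the replicate block, no robust estimation, limma-voom, abundant or mitochondrial genes left out and each library left out. It was 1 with no filter beyond 1 count (Cdk1), 2 with DESeq2, and 0 to 3 with DESeq2 and single libraries left out, an alternative added after the data were seen. Over all genes the count was 13 and became 0 with library totals, 747 with no filter, 0 with at least 50 counts in 3 libraries, 0 without robust estimation, 844 with DESeq2 and 0 to 4 with single libraries left out. With the replicate block it was 23; same-numbered libraries did not deviate together (correlations -0.0548, 0.0427 and 0.0752), so the numbers were not taken as pairs. The cause of these differences was not tested.

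The median log2 fold change of the mitosis genes stayed below 0 under every alternative, from -0.90 to -0.39 with libraries left out and -0.62 with the replicate block. With library totals as the scaling it was -0.39, where the median of all genes was 0.13, and 1 gene had an unadjusted p under 0.05. The share over all genes with this scaling is not set beside that count. The groups did not overlap in 7 genes, in 6 with DESeq2 size factors and in 5 with library totals. Over all genes they did not overlap in 15.0% lower and 14.5% higher with the main scaling. The shares with the other scalings are not set beside these counts, which say little about the group.

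Other G2/M genes called were 0, or 6 with no filter and 7 with DESeq2. Replication genes called were 1, then 0 with library totals, 15 with no filter, 0 with at least 50 counts, 2 with the replicate block, 0 without robust estimation, 20 with DESeq2 and 0 with any library left out. Regulators called were 0, or 1 with no filter and 1 with DESeq2, and inhibitors 0, or 1 with DESeq2. Over all genes 747 were called with no filter and 844 with DESeq2.

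Of 39 tested mitosis genes, 34 were below 0, and 33 with library totals. Among the genes given with values in every library, signs changed only with libraries left out. By edgeR the log2 fold change then ranged from -0.14 to 0.15 for Cdc20, -0.43 to 0.22 for Cenpf, -0.64 to 0.014 for Foxm1, -0.0020 to 0.46 for Kif23, -0.11 to 0.57 for Plk1 and -0.035 to 0.20 for Prc1. By DESeq2 it was -0.021, -0.093 and -0.12 for Cdc20 (without AL/NP replicate 2, AL/NP replicate 3 and control replicate 2), -0.42 and -0.25 for Cenpf (AL/NP replicate 3, control replicate 2), 0.011 for Foxm1 (control replicate 3), -0.10 for Plk1 (control replicate 2), and -0.0082 and -0.020 for Prc1 (AL/NP replicate 1, control replicate 2).

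In the 150 bases before the start, TTTGAA was in 11 promoters, TTCGAA in 1, either in 11, GGCGGGA in 5, TTTGGCG in 1, either of these in 6, and CCAAT with TTTGAA or TTCGAA in 9. Within 50 bases of the start these counts were 23, 1, 24, 3, 2, 5 and 16, with CCAAT in 19.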
